A study of Mus musculus with 20 samples.

Results

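A set of 10 genes was followed across thymocytes and lymphomas that lack Id2 and Id3. They are Cthrc1, Fbn2, Stc2, Gpc2, Gpr25, Cntnap1, Map2, Garem1, Plac8 and Tbx4. These were picked by symbol from 39179 genes as matrix, neuronal and secreted protein genes with large rises in dKO over control CD4SP cells. That contrast therefore chose the genes, and their values in it are a description with no test. All 10 were among the 15536 genes kept here because at least 1 group average reached 10 normalized counts. The data did not bear out the choice for every gene, since Gpc2 was lower in dKO than in control CD4SP cells and Tbx4 was at a high level only in the lymphomas.

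RNA was sequenced from 20 samples of C57BL/6 background in 5 groups. The dKO CD4SP group held 3 samples of sorted CD4+TCRb+CD8- thymocytes, which the study took from 8-wk-old Id2fl/fl Id3fl/fl IL7R-Cre mice, where Cre deletes both genes from lymphoid progenitors onward. A further 3 CD4SP samples were labelled Id3 KO, and 3 TFH samples held CD4+TCRb+CD44highCXCR5+ cells from spleens of immunized wild-type mice. The 6 dKO lymphomas were sorted CD3+TCRb+ cells, 4 from lymph node, 1 from spleen and 1 from thymus, of which 4 carried CD4 and 2 carried CD8 in their labels, and the sources used here do not give the Cre line of each. The 5 control CD4SP samples were labelled wild type, whereas the study's text names Id3+/- mice and littermates. Its control and Id3-/- CD4SP cells also came from 8-wk-old mice. The study found lymphomas in aged mice, and its text gives no age for the sequenced ones. The deposited table holds 1 average of normalized counts for each gene and group and 0 columns with values per sample, so every value below is the authors' average, no value has an error, no difference was tested, and the depth of each library is unknown.

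E proteins such as E2A and HEB are transcription factors that bind short DNA sites of the form CANNTG, called E boxes, and Id proteins pair with them and keep them off DNA. In developing T cells, Id2 and Id3 limit E protein activity as thymocytes pass selection, and their joint loss leaves E proteins without this check. The 10 genes encode products of several unrelated kinds, namely secreted and matrix proteins, a heparan sulfate carrier, membrane and cytoskeletal proteins best known from nerve cells, a receptor, an adaptor, a small cysteine-rich protein and a limb transcription factor.

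The labels were checked against the genes they name. Id2 averaged 6.82 normalized counts in dKO CD4SP cells, 30.5 in dKO lymphomas and 2293 in control CD4SP cells, and Id3 averaged 879.7 in dKO CD4SP cells against 1991 in control cells. In the libraries labelled Id3 KO, Id3 averaged 2649.7, above control, so its loss is not visible there, although reads from an undeleted part of the allele would also count towards this value. Cd3e, a subunit of the T cell receptor complex, averaged 9475 in dKO CD4SP cells, 5245 in lymphomas and 10429 in control cells. Cd4 averaged 6565, 4110 and 15039 in the same order, and Cd8a averaged 19.2, 1388 and 128. Of the 7 T cell markers, 0 were at least 2-fold higher and 3 lower in dKO over control CD4SP cells. In lymphomas over control cells 1 was higher and 2 were lower, with Trbc1 at 1502 against 7492. The shares of all kept genes are given below. The sexes of the mice were not balanced across groups, because the X-inactivation transcript Xist averaged 19.7 in dKO CD4SP cells, 5059.97 in the libraries labelled Id3 KO, 9909 in TFH cells, 10477 in lymphomas and 10461 in control cells, while the Y-linked Ddx3y averaged 1478, 1402, 533, 8.04 and 663 in the same order. All 10 genes lie on autosomes. What part sex, age, tissue or the CD4 or CD8 type plays in a difference between lymphomas and dKO CD4SP cells cannot be told apart here. In dKO over control CD4SP cells, genotype and sex cannot be told apart. In TFH over control cells, cell type, tissue and immunization cannot be told apart. In sorted cell mixtures, a change in how many cells of a kind are present and a change in RNA per cell cannot be told apart either.

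Ratios below are log2 ratios of 2 averages with 1 normalized count added to each, and a gene is called higher or lower where the ratio passes 2-fold. In dKO over control CD4SP cells, 9 of the 10 genes were at least 2-fold higher and 1 was lower, beside 14.1% and 10.1% of all kept genes, a contrast that the choice of genes had used. The same 9 were at least 4-fold higher, beside 5.66%. The median log2 ratio of the 10 was 6.88, beside 0.02 over all kept genes. By size of this ratio, Fbn2 stood at rank 4 of 15536, Gpr25 at 6, Cthrc1 at 7, Cntnap1 at 11, Stc2 at 12, Garem1 at 13 and Plac8 at 15. Map2 stood at rank 79 and Tbx4 at rank 666, the lowest of the 9, and Gpc2 ranked 752 from the lowest ratio.

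**Figure D1:**
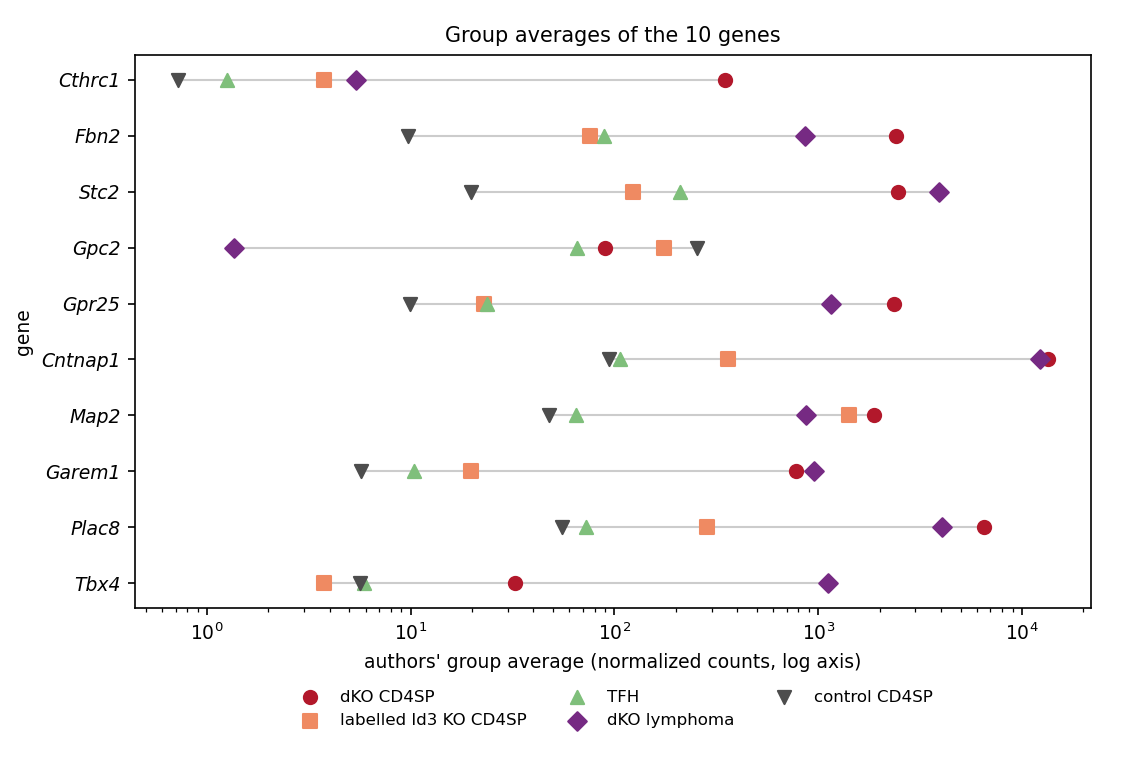
Each row is a gene and each point the authors' average of a group in normalized counts on a log axis (no error can be shown), with a grey line over the range. The dKO CD4SP points lie far to the right of the control points for 8 genes, Tbx4 is high only in dKO lymphomas at 1119, and Gpc2 runs the other way, with 1.36 in lymphomas and 255 in control cells.

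The DNA before the starts of these genes is shown where it bears on E proteins. RefSeq promoter windows (GRCm38.p6, 250 bases before to 50 after a start) were at hand for 6 of the 10 genes, with 7 starts, and not for Cthrc1, Fbn2, Cntnap1 and Garem1. The E boxes CAGCTG and CAGGTG were searched on both strands, the reverse of CAGGTG reading CACCTG. At least 1 of them was found in 3 of the 7 windows, beside 32.9% of 32851 windows genome-wide. CAGCTG was in 2 windows, a second start of Plac8 and that of Tbx4, beside 16.3%, and CAGGTG in 1, that of Stc2, beside 20.2%. The wider form CANNTG was in 5 of the 7, beside 72.3%. The sequences below are the stretches upstream of annotated exons of Stc2 and Tbx4, which hold such a match (capitals), and of Gpr25 and the first start of Plac8, which hold neither CAGCTG nor CAGGTG. Each is read 5′ to 3′ on the strand of its gene, and a match is a description of letters and not a bound site.
Stc2 (chr11:31370075-31370311, minus strand, GRCm38.p6): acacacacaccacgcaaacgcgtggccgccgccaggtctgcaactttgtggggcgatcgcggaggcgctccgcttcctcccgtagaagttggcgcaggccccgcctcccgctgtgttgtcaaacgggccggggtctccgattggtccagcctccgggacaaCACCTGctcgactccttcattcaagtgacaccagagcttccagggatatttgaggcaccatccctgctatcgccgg
Tbx4 (chr11:85896515-85896764, plus strand, GRCm38.p6): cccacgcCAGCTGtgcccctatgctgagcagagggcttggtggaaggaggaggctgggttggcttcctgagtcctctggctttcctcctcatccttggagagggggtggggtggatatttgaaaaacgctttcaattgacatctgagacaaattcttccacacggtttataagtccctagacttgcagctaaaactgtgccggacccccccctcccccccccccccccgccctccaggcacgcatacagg
Gpr25 (chr1:136260927-136261176, minus strand, GRCm38.p6): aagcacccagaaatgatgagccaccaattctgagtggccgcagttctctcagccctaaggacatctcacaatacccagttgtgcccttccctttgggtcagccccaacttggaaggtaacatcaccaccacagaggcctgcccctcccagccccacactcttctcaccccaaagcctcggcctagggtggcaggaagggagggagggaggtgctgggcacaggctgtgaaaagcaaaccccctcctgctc
Plac8 (chr5:100572246-100572455, minus strand, GRCm38.p6): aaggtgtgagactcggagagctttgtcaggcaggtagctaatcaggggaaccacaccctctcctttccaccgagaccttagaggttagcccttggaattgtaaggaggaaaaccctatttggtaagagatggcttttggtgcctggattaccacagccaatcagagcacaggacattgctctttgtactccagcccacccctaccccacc
Counted from the start of transcription, the match begins at position -89 in Stc2 and at -243 in Tbx4. The Tbx4 start used by RefSeq lies inside the longer gene span of the GENCODE annotation.

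Among the secreted and matrix genes, Cthrc1 had the sharpest contrast between dKO CD4SP cells and every other group. CTHRC1 is a secreted collagen triple helix repeat protein that takes part in WNT planar polarity signalling, and its gene lies on chromosome 15 from 39076932 to 39087121 of mm10. Cthrc1 averaged 347 normalized counts in dKO CD4SP cells, 3.76 in the libraries labelled Id3 KO, 1.26 in TFH cells, 5.37 in lymphomas and 0.72 in control CD4SP cells. Only the dKO CD4SP average was above 10, and the lymphoma average was 1.55% of it. The log2 ratio was 7.66 in dKO over control cells and -5.77 in lymphomas over dKO cells. Because the control average was under 1, the first ratio was 8.91 with no count added. Fzd6, a Frizzled receptor of the planar polarity pathway, is the next protein-coding gene on the lower side, 38743 bases away on the same strand, and averaged 199.6 in dKO CD4SP cells, 27.5 in the libraries labelled Id3 KO, 11.0 in TFH cells, 20.6 in lymphomas and 2.73 in control cells. Fzd6 was thus also highest in dKO CD4SP cells and low in the lymphomas (log2 ratio -3.21 over dKO cells), while Slc25a32, 4109 bases away on the other side, averaged 255.7 in dKO and 255.9 in control CD4SP cells.

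Fbn2 and Stc2 were high in both dKO groups. FBN2 is fibrillin-2, a glycoprotein of extracellular microfibrils that is best known from embryonic connective tissue, and its gene lies on chromosome 18 from 58008623 to 58210487. Fbn2 averaged 2412 normalized counts in dKO CD4SP cells, 75.7 in the libraries labelled Id3 KO, 88.6 in TFH cells, 866 in lymphomas and 9.67 in control cells. Its log2 ratio of 7.82 in dKO over control cells was the largest of the 10, and the lymphomas held 35.9% of the dKO CD4SP average (log2 ratio -1.48). STC2 is stanniocalcin-2, a secreted glycoprotein that binds and inhibits the protease PAPP-A and so restrains IGF release, encoded on chromosome 11 from 31357307 to 31370074. Stc2 averaged 2467 in dKO CD4SP cells, 123 in the libraries labelled Id3 KO, 209 in TFH cells, 3909.98 in lymphomas and 19.8 in control cells. Its lymphoma average was 158% of the dKO average, and it had the largest log2 ratio of the 10 in lymphomas over control cells, 7.55. Fbn2 and Stc2 were also the pair with the largest ratios among the 10 in TFH over control cells, 3.07 for Fbn2 and 3.33 for Stc2.

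Gpc2 went the other way. GPC2 is glypican-2, a heparan sulfate proteoglycan anchored in the cell membrane and best known from the developing nervous system, and its gene lies on chromosome 5 from 138273655 to 138280005. Gpc2 averaged 89.8 normalized counts in dKO CD4SP cells, 174 in the libraries labelled Id3 KO, 65.3 in TFH cells, 1.36 in lymphomas and 255 in control cells. Control CD4SP cells were thus the highest group, and the lymphoma average was near 0. The log2 ratio was -1.50 in dKO over control cells, -1.95 in TFH over control cells and -6.77 in lymphomas over control cells, where it stood at rank 16 from the lowest. Stag3, a cohesin subunit of meiotic cells, starts 234 bases away on the opposite strand. Stag3 averaged 99.9 in dKO CD4SP cells, 42.0 in the libraries labelled Id3 KO, 17.7 in TFH cells, 4.18 in lymphomas and 24.6 in control cells. These neighbours therefore differed in direction in dKO over control cells (log2 ratio 1.98 for Stag3), and each was lowest in the lymphomas.

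Markers of matrix-forming and epithelial cells were read beside these genes. The 9 fibroblast and mesenchyme markers summed to 432 normalized counts in dKO CD4SP cells, 76.9 in the libraries labelled Id3 KO, 49.5 in TFH cells, 1682 in lymphomas and 61.0 in control cells. Only Col1a1 and Fn1 of the 9 passed the filter, and the collagen gene Col1a1 made up most of each dKO sum, with 377 in dKO CD4SP cells, 1663 in lymphomas and 24.7 in control cells. The defining fibroblast genes Pdgfra, Dcn and Lum averaged 6.80, 2.34 and 1.70 in dKO CD4SP cells, 0.76, 0.74 and 0.62 in lymphomas and 3.64, 0.59 and 1.47 in control cells. The 7 thymic epithelium markers summed to 648 in dKO CD4SP cells, 3831 in lymphomas and 99.4 in control cells, mostly from the adhesion molecule gene Epcam at 593, 3797 and 70.7, while Foxn1, the defining factor of thymic epithelium, averaged 3.55, 1.88 and 1.99 in the same order. Aire, a regulator of medullary epithelium, was higher in both dKO groups at a low level, with 33.7 in dKO CD4SP cells, 26.5 in lymphomas and 7.17 in control cells.

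Markers of blood cells also differed between groups. The 5 granulocyte markers summed to 405 normalized counts in lymphomas, 3.7 in dKO CD4SP cells and 10.1 in control cells. The lymphoma sum came mostly from S100a8 and S100a9, at 145 and 230. Mpo averaged 20.9 in lymphomas, 2.28 in dKO CD4SP cells and 4.42 in control cells. Elane averaged 8.76, 0 and 0.88 in the same order, and Ly6g averaged 0.28, 0 and 0.36. The 6 myeloid markers summed to 431 in lymphomas, 202 in dKO CD4SP cells and 84.3 in control cells. Itgam made up most of each sum, at 274, 181 and 69.4 in the same order. The lysozyme gene Lyz2 averaged 123 in lymphomas, 7.70 in dKO CD4SP cells and 3.82 in control cells, and Csf1r averaged 30.9, 7.22 and 5.86. Adgre1 and Fcgr1 were lower in lymphomas (1.31 and 0.48) than in control cells (2.44 and 1.47), and Cd14 averaged 1.51 and 1.33. The 5 B cell markers summed to 495 in TFH cells, 518 in lymphomas, 85.7 in dKO CD4SP cells and 74.9 in control cells. All 5 were higher in TFH than in control cells, whereas the lymphoma sum came mostly from Cd79b at 455. The 4 plasma cell markers summed to 2429 in lymphomas, 2074 in dKO CD4SP cells and 1036 in control cells. Xbp1 made up most of the dKO CD4SP and control sums, at 1960 and 985, and averaged 1041 in lymphomas. The immunoglobulin joining chain gene Jchain averaged 768 in lymphomas, 51.5 in dKO CD4SP cells, 415 in TFH cells and 2.53 in control cells. Sdc1 averaged 553 in lymphomas, 30.9 in dKO CD4SP cells and 10.0 in control cells, and Prdm1 averaged 67.6, 32.1 and 38.3. What part cells of these kinds had in the values of the 10 genes was not tested.

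The related genes of each family were counted by the same rule, without the 10 genes themselves. Of 11 other kept microfibril and elastic fibre genes, 4 were at least 2-fold higher and 1 lower in dKO over control CD4SP cells. The shares of all kept genes were 14.1% and 10.1%. Lox, which crosslinks collagen and elastin, had the largest ratio among them, with 235 normalized counts in dKO CD4SP cells and 6.13 in control cells (log2 ratio 5.05). Fbln1 and Fbln2, which encode fibulins of the same fibres, each had a log2 ratio of 1.73, and Ltbp4, a latent TGF-beta binding protein gene, had 1.24. The lower gene, named after its values were seen, was the microfibril gene Mfap2, at 1.65 in dKO and 5.68 in control cells. In lymphomas over control cells 6 of these 11 were higher and 2 lower, beside 18.2% and 17.2% of all kept genes.

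Of 16 other WNT planar polarity genes, 3 were higher and 3 lower in dKO over control CD4SP cells, beside 14.1% and 10.1% of all kept genes. Fzd6 is described above, and Ryk, a WNT co-receptor gene, averaged 471 normalized counts in dKO CD4SP cells, 467 in lymphomas and 9.79 in control cells. Unlike Cthrc1 and Fzd6, Ryk was thus at nearly the same level in lymphomas and dKO CD4SP cells. Prickle1 had a log2 ratio of 1.69 in dKO over control cells and Wnt5b had -2.02. Among 21 other glypican, syndecan and heparan sulfate genes, 6 were higher and 2 lower, beside the same shares. Sulf2, an extracellular sulfatase gene, averaged 119.6 in dKO CD4SP cells, 1024 in lymphomas and 11.1 in control cells. Hpse, the heparanase gene, had a log2 ratio of 1.97 in dKO over control cells. Gpc3, the glypican gene that was higher in dKO over control cells (log2 ratio 1.95), was at a low level throughout, with 14.2 in dKO and 2.94 in control cells. Of 6 other kept genes around stanniocalcin, PAPP-A and the IGF axis, Igfbp7 was higher, with 329.6 in dKO CD4SP cells, 33.6 in lymphomas and 2.80 in control cells, and Igf1r, the IGF receptor gene, was lower (log2 ratio -1.49).

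**Figure D2:**
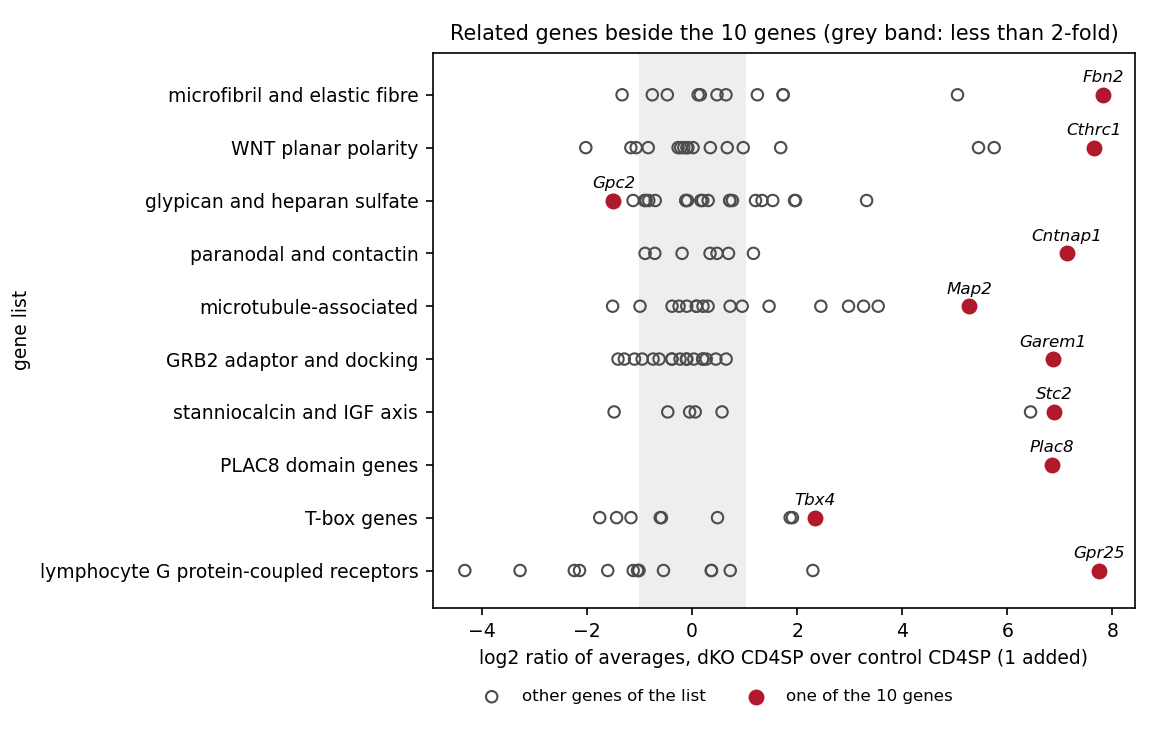
Each row is a list of related genes, each open circle a kept gene and each filled circle one of the 10 genes, placed by its log2 ratio of averages in dKO over control CD4SP cells (1 normalized count added). Fbn2 at 7.82, Cthrc1 at 7.66 and Map2 at 5.28 lie to the right of all their relatives, Gpc2 at -1.50 lies among the lowest of its list, and Plac8 is the sole kept gene of its own.

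Gpr25 and Cntnap1 encode membrane proteins. GPR25 is a G protein-coupled receptor related to chemoattractant receptors, encoded in 1 exon on chromosome 1 from 136259797 to 136260873. Gpr25 averaged 2353 normalized counts in dKO CD4SP cells, 23.0 in the libraries labelled Id3 KO, 23.5 in TFH cells, 1156 in lymphomas and 9.91 in control cells. Both dKO groups were far above the others, and the lymphomas held 49.1% of the dKO CD4SP average, just under the level of 50% at which a gene was counted as kept. The log2 ratio was 7.75 in dKO over control cells and 6.73 in lymphomas over control cells. An antisense gene, Gm26781, overlaps 448 exon bases of Gpr25 and averaged 159 in dKO CD4SP cells, 56.6 in lymphomas and 9.05 in control cells. The libraries keep the strand, but whether counting used it is not given in the sources used here, so reads of Gpr25 and Gm26781 may not be separated. Of 14 other lymphocyte receptor genes of this kind, 9 were lower in dKO over control CD4SP cells, beside 10.1% of all kept genes. The lowest log2 ratios among them were those of Gpr83 at -4.33, Gpr18 at -3.27 and Gpr65 at -2.24.

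CNTNAP1 is Caspr, a contactin-associated protein of the paranodal junctions between axons and myelin, and its gene spans chromosome 11 from 101170523 to 101190724. Cntnap1 had the highest average of the 10, with 13400.5 normalized counts in dKO CD4SP cells, 363 in the libraries labelled Id3 KO, 107 in TFH cells, 12257 in lymphomas and 94.5 in control cells. Lymphomas and dKO CD4SP cells were thus nearly level (91.5%), and TFH and control cells were nearly level with each other. The log2 ratio was 7.13 in dKO over control cells and 7.00 in lymphomas over control cells. Of 7 other kept paranodal and contactin family genes, 1, Cntn1, was higher and 0 lower in dKO over control cells. The shares of all kept genes were 14.1% and 10.1%, and Cntn1 averaged only 10.3 in dKO and 4.05 in control cells. The 10 neuron and Schwann cell markers summed to 84.6 in dKO CD4SP cells, 97.8 in the libraries labelled Id3 KO, 128 in TFH cells, 63.1 in lymphomas and 121 in control cells, so they were not higher where Cntnap1 and Map2 were.

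Of 17 kept genes within 100 kb of Cntnap1, 5 (29.4%) were at least 2-fold higher in dKO over control CD4SP cells, beside 14.1% of all kept genes. Those that overlap Cntnap1 or lie just upstream were among the 5. Ccr10, the receptor gene for skin and mucosal chemokines, lies inside the Cntnap1 span on the opposite strand and shares 0 exon bases with it. Ccr10 averaged 1911 normalized counts in dKO CD4SP cells, 134 in the libraries labelled Id3 KO, 61.9 in TFH cells, 2954 in lymphomas and 32.5 in control cells. Plekhh3 overlaps the start of Cntnap1 on the opposite strand, with 233 shared exon bases, and averaged 155 in dKO CD4SP cells, 236 in lymphomas and 12.4 in control cells. Reads of Plekhh3 and Cntnap1 may not be separated, as with Gpr25 and Gm26781. Tubg2, a gamma-tubulin gene 8735 bases upstream, averaged 202 in dKO CD4SP cells, 673 in lymphomas and 38.1 in control cells. On the other side Ezh1, which begins 390 bases past the end of Cntnap1, averaged 1258 in dKO CD4SP cells and 1067 in control cells, a log2 ratio of 0.24.

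**Figure D3:**
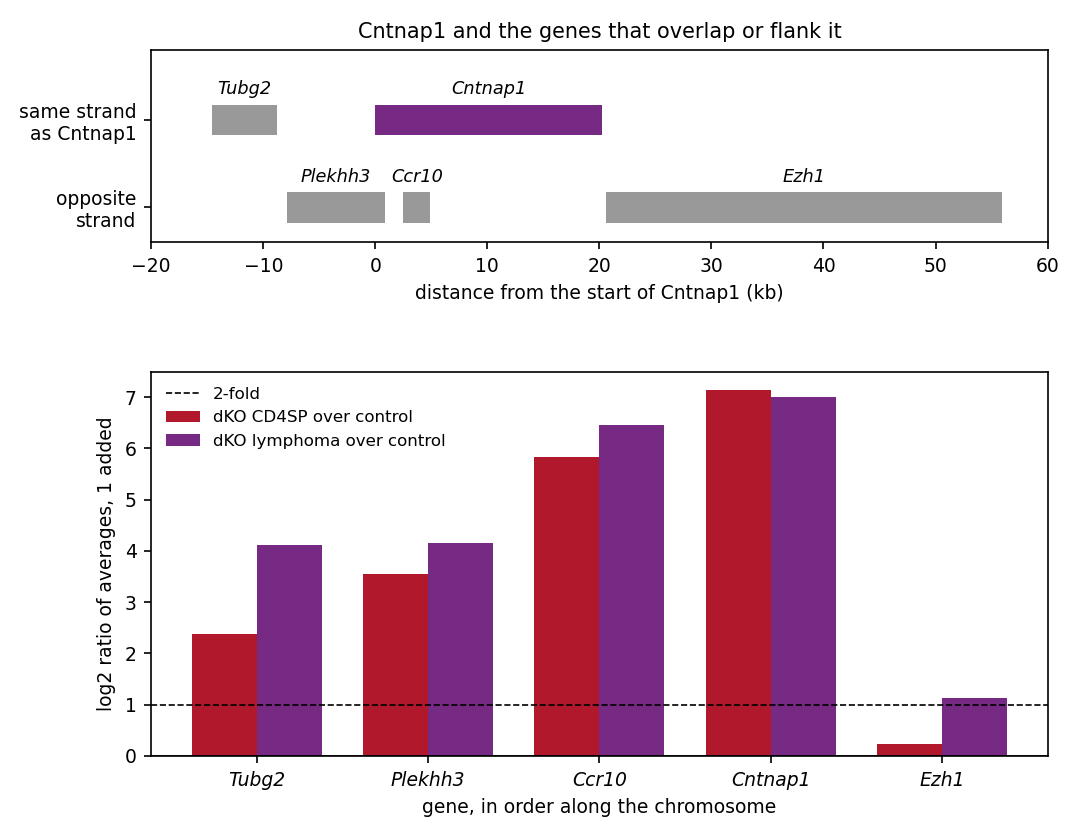
The upper panel places Cntnap1 and its overlapping or flanking genes by distance in kb from the start of Cntnap1, with the strand as the row. The bars below give the log2 ratio of averages with 1 normalized count added, dKO CD4SP cells and dKO lymphomas each over the same control CD4SP cells, and stand at 5.83 and 6.46 for Ccr10 and at 0.24 and 1.14 for Ezh1.

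MAP2 stabilizes microtubules in the dendrites of nerve cells, and its gene spans chromosome 1 from 66175273 to 66442583. Map2 averaged 1881 normalized counts in dKO CD4SP cells, 1417 in the libraries labelled Id3 KO, 64.7 in TFH cells, 871 in lymphomas and 47.6 in control cells. It differed from the others in the libraries labelled Id3 KO, where it was at 75.3% of its dKO CD4SP average, while the other 8 genes that were higher in dKO cells were at 0.98% to 11.5% there. The log2 ratio of 4.87 in the libraries labelled Id3 KO over control cells placed Map2 at rank 19 of all kept genes. Unc80, a sodium leak channel subunit gene 25783 bases downstream, was similar, with 237 in dKO CD4SP cells, 143 in the libraries labelled Id3 KO, 5.73 in TFH cells, 42.6 in lymphomas and 10.0 in control cells. Of 16 other kept microtubule-associated and stathmin genes, 5 were higher and 1 lower in dKO over control cells, beside 14.1% and 10.1% of all kept genes. Tubb3, the neuronal beta-tubulin gene, averaged 649 in dKO CD4SP cells and 54.8 in control cells (log2 ratio 3.54), Map1b had a log2 ratio of 3.26, Map9 2.98 and Map1a 2.45. In the libraries labelled Id3 KO, 0 of these 16 were higher and 2 were lower, beside 5.57% and 4.43% of all kept genes.

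Garem1 and Plac8 encode proteins of the cytoplasm. GAREM1 is an adaptor that links the EGF receptor to GRB2 and ERK signalling, encoded on chromosome 18 from 21127201 to 21300138. Garem1 averaged 780.5 normalized counts in dKO CD4SP cells, 19.7 in the libraries labelled Id3 KO, 10.3 in TFH cells, 957 in lymphomas and 5.71 in control cells. The lymphoma average was 123% of the dKO CD4SP average. Of 17 other kept GRB2 adaptor and docking genes, 0 were higher and 3 lower in dKO over control cells, beside 14.1% and 10.1% of all kept genes. The 3 were Grap (log2 ratio -1.41) and Grap2 (-1.29), adaptors of T cell receptor signalling, and Shc2 (-1.10). PLAC8 is a small cysteine-rich protein found in several immune cells and first described in placenta, encoded on chromosome 5 from 100553725 to 100572245. Plac8 averaged 6501 in dKO CD4SP cells, 285 in the libraries labelled Id3 KO, 72.5 in TFH cells, 4066 in lymphomas and 55.3 in control cells. The lymphomas thus held 62.5% of the dKO CD4SP average, and the genes beside Plac8, Cops4 and Coq2, had log2 ratios of 0.12 and 0.40 in dKO over control cells.

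TBX4 is a T-box transcription factor of hindlimb and lung mesenchyme, encoded on chromosome 11 from 85886422 to 85916097. Tbx4 averaged 32.4 normalized counts in dKO CD4SP cells, 3.73 in the libraries labelled Id3 KO, 5.92 in TFH cells, 1119 in lymphomas and 5.62 in control cells. It was at a low level in dKO CD4SP cells and high in the lymphomas, with a log2 ratio of 7.40 in lymphomas over control cells, rank 16 of all kept genes, and 5.07 in lymphomas over dKO cells. Without values per library, how many of the 6 lymphomas carried it cannot be seen. Of 8 other kept T-box genes, 2 were higher and 3 lower in dKO over control cells, beside 14.1% and 10.1% of all kept genes. Eomes, a T-box factor of cytotoxic and innate-like T cells, averaged 138 in dKO CD4SP cells and 4727 in the libraries labelled Id3 KO, against 37.2 in control cells. Tbx19, the other higher gene, was at a low level, with 11.8 in dKO CD4SP cells and 2.42 in control cells. Tbx21, which encodes T-bet, was lower, with 22.5 in dKO CD4SP cells and 62.7 in control cells. In lymphomas over control cells 2 of these 8 were higher and 3 lower, beside 18.2% and 17.2% of all kept genes. Tbx3, named after its values were seen, was like Tbx4 highest in lymphomas, with 145 there, 6.40 in dKO CD4SP cells and 4.29 in control cells.

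The question of which genes were kept or lost in lymphoma was put to the averages. In lymphomas over dKO CD4SP cells 1 of the 10 genes was at least 2-fold higher and 5 were lower, beside 11.1% and 14.4% of all kept genes. The dKO CD4SP averages had already served to choose the genes, so these counts and the classes below are a description. Cntnap1, Garem1, Stc2, Plac8 and Tbx4 were kept. This means that the lymphoma average was at least 50% of the dKO CD4SP average and also at least 2-fold above control. The first condition alone held in 85.6% of all kept genes and the second alone in 18.2%, and the share with both was not counted. Tbx4 met both conditions by a rise, with 32.4 normalized counts in dKO CD4SP cells and 1119 in lymphomas. Its class is therefore not a high dKO level that was kept. Fbn2, Gpr25, Map2 and Cthrc1 were reduced, being under the 50% level but still at least 2-fold above control. Gpc2 was under 2 times its control average in lymphomas, as were 81.8% of all kept genes. That was the limit for calling a gene lost, but Gpc2 was already below control in dKO CD4SP cells and so had no higher level to lose. Of the 4 reduced genes, Gpr25 at 49.1% and Map2 at 46.3% lay near the limit, and Cthrc1 at 1.55% lay far from it. With a limit of 4-fold in place of 2-fold, 8 genes were kept, and Cthrc1 fell under the limit for lost, as Gpc2 did. At that limit only 6.31% of all kept genes were lower in lymphomas over dKO CD4SP cells. In lymphomas over control cells 8.75% were at least 4-fold higher, and the share with both conditions was again not counted. The rise from 5 to 8 is therefore no result about these genes. Against control cells 9 of the 10 were at least 2-fold higher in lymphomas and 1 lower, with a median log2 ratio of 6.54, beside 18.2% and 17.2% of all kept genes. Rescaling the averages to equal sums changed these shares of all genes to 15% and 21.3% and their median log2 ratio to -0.19, and left the 9 and the 1 as they were. Lymphomas and dKO CD4SP cells were set against the same control libraries, so the values of both comparisons are given side by side and their likeness is not a result.

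**Figure D4:**
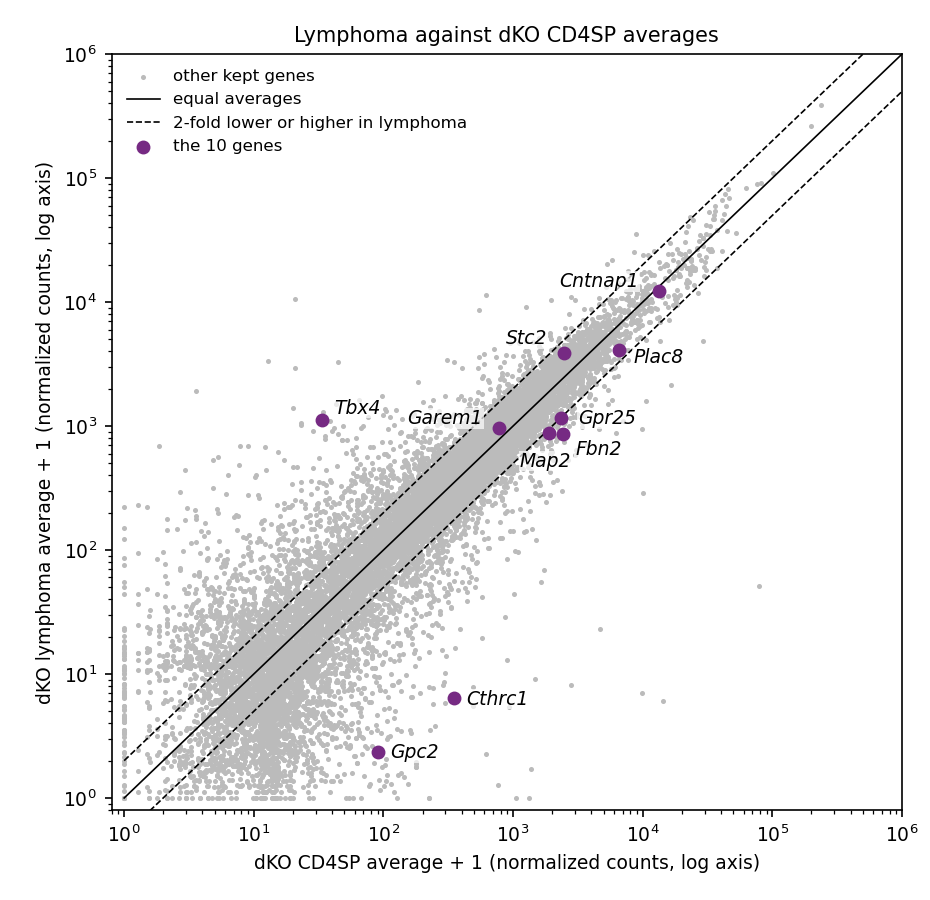
Each grey point is a kept gene and each purple point one of the 10, placed by its dKO lymphoma average (vertical) and its dKO CD4SP average (horizontal) in normalized counts with 1 added, on log axes. Cntnap1 lies near the line of equal averages, Tbx4 far above it at 1119 against 32.4, and Cthrc1 at 5.37 against 347 and Gpc2 at 1.36 against 89.8 lie far below it.

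The libraries labelled Id3 KO, like the TFH cells, were set against the control averages that had already served to choose the 10 genes, so the counts in both comparisons are a description. There 8 of the 10 were at least 2-fold higher and 0 lower, beside 5.57% and 4.43% of all kept genes, with a median log2 ratio of 1.78. Only Map2, Fbn2, Stc2 and Plac8 were at least 4-fold higher, beside 1.9%. The count of 8 became 5 when 10 normalized counts were added in place of 1, because several control averages were under 10. For 8 of the 10 genes the dKO average was above that of the libraries labelled Id3 KO and that in turn above the control average. The choice of genes had used the dKO and control averages, and the share of all kept genes in this order was not counted. The order is therefore no result about these genes.

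TFH cells were compared with control CD4SP cells in the same way. Of the 10 genes 3 were at least 2-fold higher in TFH over control CD4SP cells, namely Stc2, Fbn2 and Gpr25, 1 was lower, Gpc2, and 6 were neither, beside 11.8% higher and 9.8% lower among all kept genes. The median log2 ratio of the 10 was 0.41. Stc2 had the highest TFH average of the 10, 209, which was 8.46% of its dKO CD4SP average of 2467.

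Levels between genes were compared per length, as averages per kb of annotated exon placed among all kept genes of known length. In dKO CD4SP cells Plac8 stood at percentile 98.8, Cntnap1 at 98.1 and Gpr25 at 98.0, so these 3 were among the most abundant transcripts. Stc2 stood at 89.5, Cthrc1 at 77.7, Fbn2 at 74.1, Garem1 at 66.4 and Map2 at 64.3. Gpc2 at 32.4 and Tbx4 at 22.9 were the lowest. In control CD4SP cells the percentiles per kb of the 10 ran from 1.75 for Cthrc1 to 50.1 for Gpc2. The exon length is the union over all annotated transcripts, so a gene with many isoforms such as Map2 may be placed too low.

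Likeness of pattern was measured as the Euclidean distance between genes over the 4 log2 ratios to control, among 15289 kept genes with a symbol. Among the 10 genes, Cntnap1 and Garem1 were closest (0.73), followed by Cntnap1 and Plac8 (0.99), and Gpr25 was 1.18 from Garem1. Enox1, an oxidase of the cell surface, was as close to Garem1 (0.69) and Cntnap1 (0.73), with 418 normalized counts in dKO CD4SP cells, 709 in lymphomas and 3.84 in control cells. The gene nearest to Fbn2 was Wnt10a (0.83), a WNT ligand gene that averaged 5351 in dKO CD4SP cells, 200.8 in the libraries labelled Id3 KO, 211 in TFH cells, 1963 in lymphomas and 32.4 in control cells. Fam84a was the nearest to Stc2 (1.08) and the keratin gene Krt17 was among the nearest 3 of both. Nearest to Gpr25 was Rps3a3 (0.66), annotated as a processed pseudogene, whose reads may be shared with its parent gene.

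Cthrc1 had no close relative in pattern, the nearest being Rprm (2.16) and Cdkn2a (2.42), the locus of the cell cycle inhibitors p16Ink4a and p19Arf. Cdkn2a averaged 192 normalized counts in dKO CD4SP cells, 17.3 in the libraries labelled Id3 KO, 7.10 in TFH cells, 6.01 in lymphomas and 2.57 in control cells. Like Cthrc1 it was highest in dKO CD4SP cells and close to the other groups in lymphomas. Tbx4 was nearest to Spag16 (0.90), a sperm flagellum gene with 438 in lymphomas and 11.4 in dKO CD4SP cells, and to Serpinb5 (0.93), which encodes maspin, with 833 in lymphomas and 34.4 in dKO CD4SP cells. Map2 was nearest to Gm15947 (1.43), an antisense gene with 105 in dKO CD4SP cells and 131 in the libraries labelled Id3 KO, against 0.97 in control cells. Gpc2 was nearest to Dip2c (1.12), which averaged 44.1 in dKO CD4SP cells, 0.87 in lymphomas and 170.5 in control cells.

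The genes around the 10 were counted within 100 kb. Of 45 kept neighbours, 14 were at least 2-fold higher in dKO over control CD4SP cells and 1 was lower, which is 31.1% higher beside 14.1% of all kept genes. Cntnap1 alone had 17 of these neighbours, 5 of them higher. All 5 kept genes that overlap any of the 10 were among the 14, namely Gm26507 at Fbn2, Gm26781 at Gpr25, Plekhh3 and Ccr10 at Cntnap1 and Gm10558 at Map2, and all lie on the opposite strand. Apart from Ccr10, these overlapping genes share exon bases with the gene they overlap, so their reads may not be separated from its own. Without the overlapping genes 9 of 40 were higher, or 22.5%. Higher neighbours of Fbn2 included Slc12a2, 61801 bases away (log2 ratio 1.96), and Slc27a6, a fatty acid transporter gene beyond that window, averaged 868 in dKO CD4SP cells, 717 in lymphomas and 24.0 in control cells. The neighbour counts are a description, since genes of 1 locus are not independent.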

How the data were processed

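For 20 mouse samples the authors aligned strand-specific RNA-seq reads with the OSA algorithm (Array Studio, mm10), estimated abundances by RSEM and normalized them with DESeq. Neither the paper nor the labels used here give tool versions. In 5 columns the deposited table holds a signal per gene, namely the group average of normalized counts as the authors made it. Another 12 columns hold the authors' fold changes, p-values and false discovery rates, which were not used. The study states that genes under 10 in all samples were removed, yet 5285 genes in the table are at 0 in every group.

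Genes with at least 1 average of 10 or more were kept. Without values per library no model, error or interval could be had, so the ratio of 2 averages with 1 added was described by a 2-fold limit and read against the share of all kept genes past it. The members and lists were chosen with earlier results of these data known. Named genes were the 10, the genes overlapping them or nearest on each side, the 3 kept genes nearest in pattern to each, and in each related list at most 4 genes past the limit, by size of change, whose higher average reached 10. The text says where a gene outside this rule was named after its values were seen. A gene within the rule is not reported here. Col1a1, Epcam and the other markers named came from lists of cell type markers. Pseudocounts of 0.5 and 10, no filter or a minimum of 50, a 4-fold limit and 2 rescalings were tried. Symbols were matched by Ensembl ID for 37607 of 39179 genes, positions and exons came from GENCODE M21 and promoters from RefSeq on GRCm38.p6. Python 3.11.15, numpy 2.4.6, pandas 2.3.3 and matplotlib 3.10.9 were used.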

Additional observations from a re-analysis of the deposited data

How the results depend on the processing

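The number of the 10 genes at least 2-fold higher in the libraries labelled Id3 KO was 8, and became 5 with 10 normalized counts added and 4 with a 4-fold limit. The number kept in lymphoma was 5, among them Tbx4, which rose in lymphomas, and became 8 with a 4-fold limit, which lets Fbn2, Gpr25 and Map2 in. At 4-fold, 6.31% of all kept genes were lower in lymphomas over dKO CD4SP cells and 8.75% higher in lymphomas over control cells. The number under the limit for lost in lymphoma was 1, Gpc2, which was already below control in dKO CD4SP cells, and became 2 with 10 added and 2 with a 4-fold limit, when Cthrc1 was under it too. The counts for dKO, TFH and lymphomas over control cells and for lymphomas over dKO cells stayed within 1.5 times their value under each alternative run. Of the 50 log2 ratios of the genes, 17 moved with 10 added and 0 changed sign, and 0 moved with 0.5 added or under either rescaling, whose factors ran from 0.948 to 1.10. No paired analysis was possible because the table holds group averages and no values per library, and for that reason leaving out each replicate in turn was not run either. Averages alone cannot show whether 1 library of a group carries a value, and low averages such as those of Cthrc1 outside dKO CD4SP cells are of unknown precision.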

Other observations

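Sdc1, given above among the plasma cell markers, is also a syndecan gene and encodes a heparan sulfate carrier of plasma cells and epithelia. The same averages apply, 553 normalized counts in dKO lymphomas and 30.9 in dKO CD4SP cells, against 10.0 in control CD4SP cells. Gpc1 averaged 113 in dKO CD4SP cells and 31.7 in lymphomas, against 248 in control cells, so that it and Gpc2 were each lowest in the lymphomas. The planar polarity gene Vangl2 averaged 265 in dKO CD4SP cells and 1111 in lymphomas, against 556 in control cells, a log2 ratio of -1.07 in dKO over control cells, while the ratio in lymphomas over control cells did not reach 2-fold. Celsr2, of the same pathway, averaged 119 in dKO CD4SP cells and 11.6 in lymphomas, against 269 in control cells. Gpc1, Vangl2 and Celsr2 were chosen after their values were seen, and no difference was tested.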
